A study of Homo sapiens with 8 samples.

Results

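The genes described here are 42 transcripts of the NRF2 pathway and of the glutathione, thioredoxin, peroxidase, glutathione transferase, pentose phosphate and ferritin systems, taken by name from the 57905 genes of the expression table, and each of the 42 was matched to a gene of the table. They were followed by RNA sequencing of 8 libraries from 2 human prostate cancer lines. EnzaR cells, which resist the antiandrogen enzalutamide and were kept in 10 uM of it, received 40 nM of siRNA against YAP1 (siYAP1, 2 libraries) or of control siRNA (siNC, 2 libraries) for 48 h. LNCaP cells, an androgen-sensitive line, were given extracellular vesicles (EVs) of EnzaR cells or a vehicle (control) for 48 h, with 1 library each. The EVs came from EnzaR cells depleted of YAP1 (EV-siYAP1) or of CII (EV-siCII), or given control siRNA (EV-siNC). No enzalutamide dose is given for the LNCaP libraries. No engineered allele is named for either line, nor how the EnzaR line was derived or whether it is a clone. Whether replicates came from separate cultures is not stated, and p-values therefore reflect a spread that may be only technical. In bulk RNA, fewer cells of a kind and less RNA per cell cannot be told apart.

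NRF2, the transcription factor encoded by NFE2L2, is held in the cytoplasm and handed to degradation by its sensor KEAP1, whose reactive cysteines are modified by electrophiles and oxidants. NRF2 that escapes KEAP1 enters the nucleus, pairs with small MAF proteins and binds antioxidant response elements in front of genes such as NQO1, GCLC and GCLM. Its control is largely at the level of protein, which transcript counts do not measure. Glutathione is made by glutamate-cysteine ligase and glutathione synthetase, spent by peroxidases and transferases, and regenerated with NADPH, to which the pentose phosphate pathway contributes.

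The sequences below come from members in which the letters TGACNNNGC, the core of an antioxidant response element, or their complement GCNNNGTCA occur within the 250 bases before an annotated start, and show where the letters lie. Promoters came from RefSeq on GRCh38.p14, and 33 of the 42 members matched an entry. Of these 33, 8 held the letters (24.2%), against 13.2% of the 27305 gene symbols with an entry: PGD, GCLM, GSTA4, GSTO1, GSTP1, TXNRD1, GPX2 and KEAP1. Printed are 5 of the 8, picked with their values known: the sensor KEAP1, GCLM, TXNRD1, PGD and GSTP1, while GSTA4, GSTO1 and GPX2 are named only. Sequences read 5′ to 3′ on the gene's strand, with the matching letters in capitals.
GCLM (chr1:93909431-93909494, minus strand): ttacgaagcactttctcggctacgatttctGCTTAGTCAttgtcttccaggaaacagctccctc
KEAP1 (chr19:10502772-10502832, minus strand): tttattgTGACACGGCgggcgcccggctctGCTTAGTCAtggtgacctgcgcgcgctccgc
TXNRD1 (chr12:104215650-104215718, plus strand): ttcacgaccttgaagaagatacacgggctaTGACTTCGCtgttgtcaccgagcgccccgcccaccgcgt
TXNRD1 (chr12:104286900-104286968, plus strand): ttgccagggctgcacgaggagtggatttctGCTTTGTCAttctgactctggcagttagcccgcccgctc
PGD (chr1:10398833-10398901, plus strand): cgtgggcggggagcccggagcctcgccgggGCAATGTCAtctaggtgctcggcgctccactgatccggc
GSTP1 (chr11:67583716-67583784, plus strand): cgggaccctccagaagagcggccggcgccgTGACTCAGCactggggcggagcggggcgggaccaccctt
The windows of GCLM and KEAP1 hold the same 9 letters, beginning 34 and 31 bases before the start. KEAP1 has a second match in the same window, 54 bases before the start. TXNRD1 has a match before each of 2 annotated starts, 99 and 102 bases upstream. The match of PGD begins 201 bases and that of GSTP1 66 bases before the start. A match is a description of letters, and these libraries hold no measurement of NRF2 binding.

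Total counts lay between 16682669 and 18248939 per library, and levels are given as CPM, counts scaled to library size with TMM factors, on which 3 counts amounted to 0.159 to 0.199 CPM. YAP1, the siRNA target, was at 6.04 and 7.27 CPM in siYAP1 libraries, against 59.9 and 49.0 CPM in siNC libraries (log2 fold change -3.02, SE 0.154, edgeR adjusted p = 2.07e-10). All 10 luminal prostate markers were above 1 CPM in every library, with sums of 4350 to 4730 CPM in EnzaR and 3290 to 3660 CPM in LNCaP libraries. KRT5, TP63, PTPRC and CD3E, which mark basal and blood cells, were at 0. The other basal gene, KRT14, was at 0.055 to 0.221 CPM in EnzaR and 0.164 to 0.476 CPM in LNCaP libraries. The blood cell list summed to 0 to 0.221 CPM in EnzaR libraries. Of 3 endothelium genes 2 were matched, of which 1 was above 1 CPM in every EnzaR and 1 in every LNCaP library. They summed to 8.49 to 9.12 CPM in EnzaR and 10.3 to 13.1 CPM in LNCaP libraries. A list of 5 fibroblast genes, of which 1 was above 1 CPM in every EnzaR and 3 in every LNCaP library, summed to 19.5 to 26.2 CPM in EnzaR and 106 to 122 CPM in LNCaP libraries, and its part in the results was not tested. The 42 members took 1.37% to 1.48% of counts in EnzaR and 1.12% to 1.2% in LNCaP libraries.

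EnzaR and LNCaP cells were compared with 4 libraries each. Most members were higher in EnzaR cells, led by the NRF2 targets NQO1 and GCLM and by thioredoxin, while 7 members were lower, among them PRDX5, the light chain of ferritin, the lipid peroxidase GPX4 and the NRF2 target HMOX1. Of 41 members tested, 28 were higher and 7 lower in EnzaR cells at an adjusted p under 0.05, and 6 were not called. Over all 15640 genes tested, 72.6% were called, 36.2% higher and 36.4% lower, so a call alone sets few genes apart in this comparison. The median log2 fold change was 0.471 over the members and -0.00784 over all genes tested. At a fold of 2 or more, 7 members were higher and 1 lower, against 16.2% and 18.8% of all genes. The line, the drug in the medium, the siRNA transfection and the vesicles given to LNCaP cells cannot be told apart here.

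**Figure D1:**
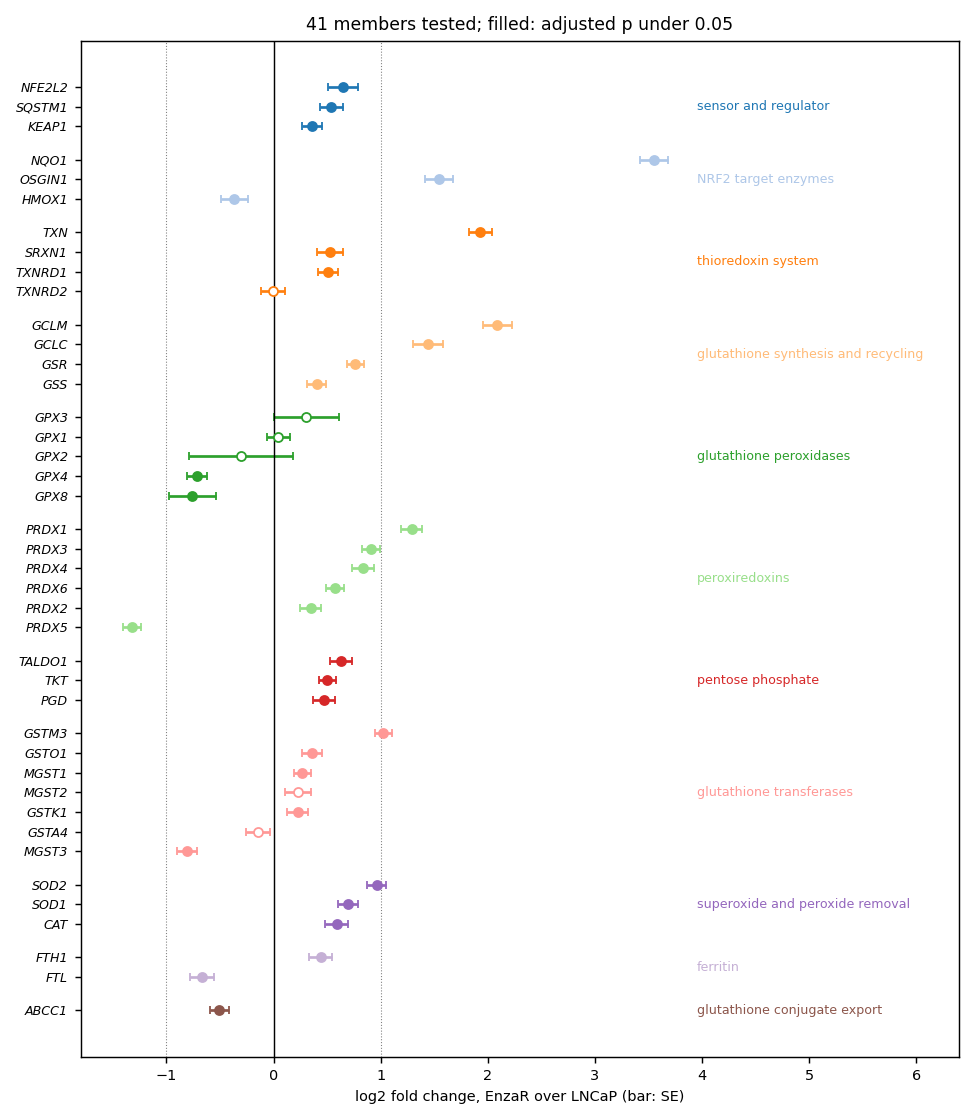
Log2 fold change of EnzaR over LNCaP cells (horizontal axis, bars are the SE) for the 41 members tested, grouped by role, with filled points for an adjusted p under 0.05. NQO1 lies farthest to the right at 3.55 and PRDX5 farthest to the left at -1.32, and the 5 glutathione peroxidases lie on both sides of 0.

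The regulators themselves differed modestly. NFE2L2 (chromosome 2, 178092323 to 178257425, hg19) reached 20.4 and 22.2 CPM in siYAP1 and 27.8 and 29.1 CPM in siNC EnzaR cells, against 18.1, 15.4, 17.2 and 12.8 CPM in LNCaP cells given EV-siYAP1, EV-siCII, EV-siNC and vehicle. The log2 fold change was 0.65 (SE 0.143, edgeR adjusted p = 0.000613). KEAP1 (chromosome 19, 10596796 to 10614417) was at 150.5 and 150.4 CPM in siYAP1 and 139.9 and 147 CPM in siNC EnzaR cells, against 97.7, 115, 114 and 133 CPM in the same order of LNCaP libraries, a log2 fold change of 0.36 (SE 0.092, adjusted p = 0.00229). SQSTM1, which encodes the autophagy receptor p62 that binds KEAP1, was higher by 0.54 (SE 0.106). Between siNC and the LNCaP control alone, neither KEAP1 (0.12) nor SQSTM1 (0.24) was called, and NFE2L2 was at 1.16. With a correction for GC content and transcript length the values were 0.35 for NFE2L2, 0.72 for KEAP1 and 1.13 for SQSTM1. AGPS overlaps NFE2L2 and MGAT4B overlaps SQSTM1, with 40.5% and 41.5% as many counts as these members, and no source states whether counting used strand, so both values carry that uncertainty.

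Among the target enzymes, NQO1, a quinone reductase and a standard readout of NRF2, showed the largest difference of any member. NQO1 (chromosome 16, 69740899 to 69760854, hg19) reached 639.7 and 589.9 CPM in siYAP1 and 567 and 548 CPM in siNC EnzaR cells, against 39.2, 46.3, 51.3 and 63.3 CPM in LNCaP cells given EV-siYAP1, EV-siCII, EV-siNC and vehicle. This was an 11.7-fold difference (log2 fold change 3.55, SE 0.127, edgeR adjusted p = 3.34e-13). OSGIN1, an oxidative stress-induced growth inhibitor, was at 41.4 and 40.7 CPM in siYAP1 and 28.7 and 34.5 CPM in siNC EnzaR cells, against 12.4, 12.5, 11.3 and 13.7 CPM in LNCaP libraries in the same order (log2 fold change 1.54, SE 0.130). HMOX1, heme oxygenase 1, went the other way: its 4 EnzaR libraries had 14.8 to 19.6 CPM, against 20.04 to 23.1 CPM in the 4 LNCaP libraries (log2 fold change -0.36, SE 0.123, adjusted p = 0.0134). The HMOX1 call was lost with siNC against the LNCaP control alone (-0.33), with the GC and length correction (-0.19) and without siYAP1 replicate 2 (-0.31).

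**Figure D2:**
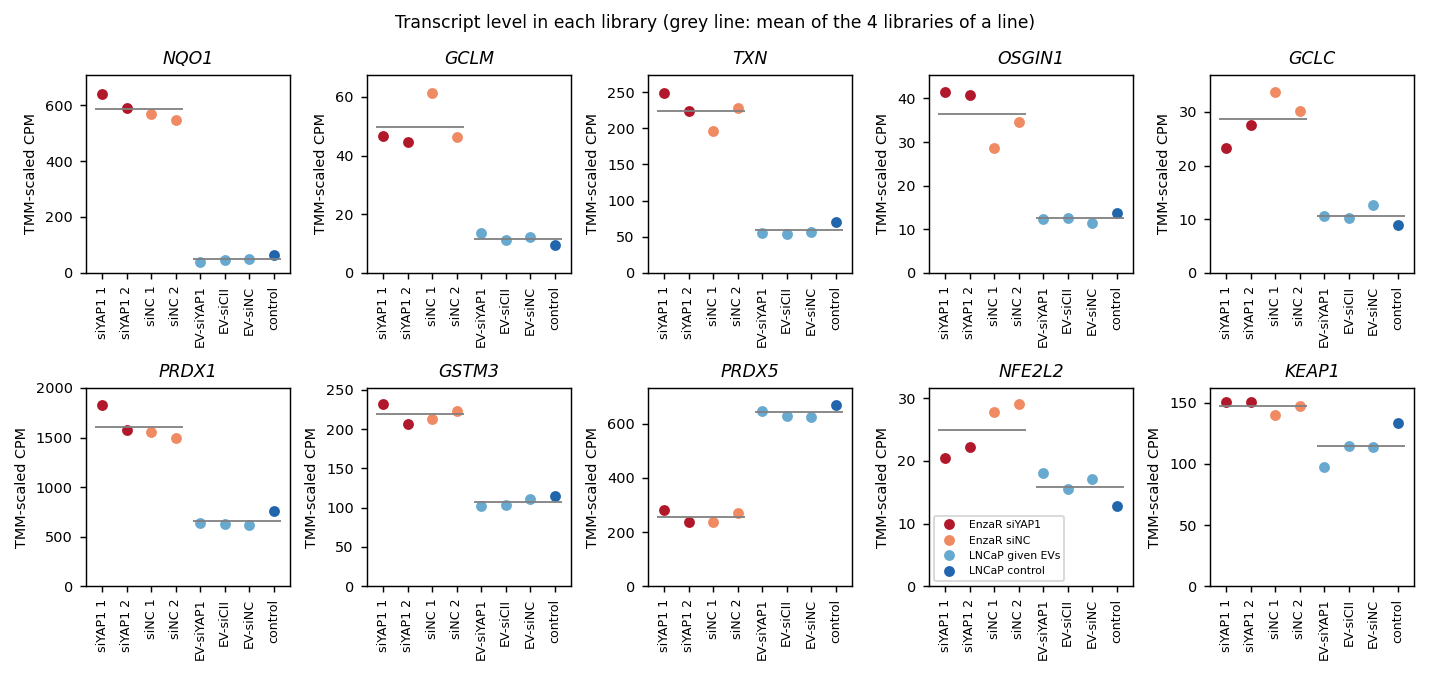
TMM-scaled CPM (vertical axis, from 0) in each of the 8 libraries (horizontal axis) for the 8 members with a 2-fold difference between the lines and for NFE2L2 and KEAP1, with the mean of each line as a grey line. In NQO1 the EnzaR libraries sit between 548 and 639.7 CPM and the LNCaP libraries between 39.2 and 63.3 CPM, and PRDX5 is the gene with LNCaP libraries on top.

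All 4 genes of glutathione synthesis and recycling were higher in EnzaR cells. GCLM (chromosome 1, 94350761 to 94374966), the modifier subunit of glutamate-cysteine ligase, was at 46.6 and 44.7 CPM in siYAP1 and 61.2 and 46.3 CPM in siNC EnzaR cells, against 13.7, 11.3, 12.4 and 9.35 CPM in LNCaP cells given EV-siYAP1, EV-siCII, EV-siNC and vehicle. The log2 fold change of GCLM was 2.09 (SE 0.136, edgeR adjusted p = 4.64e-10). GCLC, the catalytic subunit of the same enzyme, was at 23.2 and 27.6 CPM in siYAP1 and 33.6 and 30.2 CPM in siNC EnzaR cells, against 10.6, 10.2, 12.6 and 8.90 CPM in LNCaP libraries in the same order (log2 fold change 1.44, SE 0.141, adjusted p = 8.77e-08). The next enzyme, glutathione synthetase (GSS), differed by 0.40 (SE 0.090) and was not called between siNC and the LNCaP control alone (0.20). Glutathione reductase (GSR), which returns oxidised glutathione to its reduced form, was higher by 0.77 (SE 0.082).

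In the thioredoxin system the carrier differed more than its reductases. TXN (chromosome 9, 113006091 to 113018920), the cytosolic thioredoxin, was at 249 and 224 CPM in siYAP1 and 196 and 228 CPM in siNC EnzaR cells, against 54.7, 53.2, 57.1 and 70.2 CPM in LNCaP cells given EV-siYAP1, EV-siCII, EV-siNC and vehicle. The log2 fold change was 1.93 (SE 0.104, edgeR adjusted p = 4.32e-11), or 0.82 after the GC and length correction. The cytosolic reductase TXNRD1 and sulfiredoxin SRXN1, which repairs over-oxidised peroxiredoxins, were higher by 0.51 (SE 0.092) and 0.52 (SE 0.123). The mitochondrial reductase TXNRD2 was not called, with a log2 fold change of -0.00 (SE 0.114). RPL18AP3 within TXNRD1 had 123% as many counts as this member, and with the strand setting unknown the values of both reductases are uncertain.

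Of 6 peroxiredoxins, which reduce hydrogen peroxide with thioredoxin or glutathione, 5 were higher and 1 was lower. PRDX1 (chromosome 1, 45976708 to 45988719) was at 1828 and 1572 CPM in siYAP1 and 1551 and 1492 CPM in siNC EnzaR cells, against 633, 625, 621 and 756 CPM in LNCaP cells given EV-siYAP1, EV-siCII, EV-siNC and vehicle (log2 fold change 1.29, SE 0.096, adjusted p = 2.46e-09). PRDX5 (chromosome 11, 64085560 to 64089283), found in mitochondria, peroxisomes and cytosol, was at 282 and 238 CPM in siYAP1 and 237 and 271 CPM in siNC EnzaR cells, against 648, 627, 624 and 669.8 CPM in LNCaP libraries in the same order. These 2 genes differed in opposite directions, and PRDX5, at a log2 fold change of -1.32 (SE 0.085, edgeR adjusted p = 4.05e-10), was the member that was lower by more than 2-fold. The mitochondrial PRDX3 was higher by 0.91 (SE 0.082), the endoplasmic reticulum enzyme PRDX4 by 0.84 (SE 0.103), PRDX6 by 0.58 (SE 0.086) and PRDX2 by 0.35 (SE 0.095). With the GC and length correction, PRDX3 (0.09) was not called, PRDX6 stood at -0.02, and PRDX4 was at 0.41. PRDX2 (0.11) was not called between siNC and the LNCaP control alone.

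No glutathione peroxidase was called higher. GPX4, which reduces lipid hydroperoxides in membranes and restrains ferroptosis, had 464 to 645 CPM in the 4 EnzaR libraries, against 873 to 963 CPM in the 4 LNCaP libraries (log2 fold change -0.71, SE 0.097, adjusted p = 4.32e-06). GPX8, an endoplasmic reticulum peroxidase, was at 2.65 and 2.48 CPM in siYAP1 and 3.85 and 4.26 CPM in siNC EnzaR cells, against 6.77, 6.35, 5.55 and 3.82 CPM in LNCaP cells given EV-siYAP1, EV-siCII, EV-siNC and vehicle. Its vehicle library thus lay just below the siNC libraries and under the other LNCaP libraries: the log2 fold change was -0.76 (SE 0.220, adjusted p = 0.00526) over 8 libraries, 0.10 for siNC against that library alone, -0.45 and not called for siNC against all 4 LNCaP libraries, and -1.59 with the GC and length correction. GPX1, the main cytosolic enzyme, had 483 to 761 CPM in EnzaR and was not called (0.05, SE 0.112). GPX2 and GPX3 were at 0.17 to 1.62 CPM in EnzaR and 0.42 to 1.43 CPM in LNCaP libraries, too low to show a moderate difference.

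Glutathione transferases, which attach glutathione to electrophiles, did not move as a block: of 7 tested, 4 were higher, 1 was lower and 2 were not called. GSTM3 was at 232 and 207 CPM in siYAP1 and 213 and 223 CPM in siNC EnzaR cells, against 101, 103, 110.3 and 115 CPM in LNCaP cells given EV-siYAP1, EV-siCII, EV-siNC and vehicle (log2 fold change 1.03, SE 0.080, adjusted p = 5.08e-09). MGST3, a microsomal member, had 38.8 to 43.6 CPM in EnzaR libraries, against 65.9 to 82.5 CPM in LNCaP libraries (-0.81, SE 0.094). GSTO1 (0.36), MGST1 (0.27) and GSTK1 (0.23) were higher by small amounts, and none of the 3 calls was kept throughout. With the GC and length correction MGST1 was called in the opposite direction (-0.24) and GSTO1 was at 0.01 and not called. GSTK1 kept its call in 5 of 15 alternatives and was at -0.09 between siNC and the LNCaP control alone. MGST1 was also not called when scaled by library totals alone (0.17), and GSTO1 not between siNC and the LNCaP control alone (0.28). GSTA4 and MGST2 were not called. GSTP1, a transferase whose promoter is known to be methylated in most prostate cancers and in LNCaP cells, had 0 and 7 counts in siYAP1 and 6 and 5 counts in siNC EnzaR cells, against 0, 2, 0 and 8 counts in LNCaP cells given EV-siYAP1, EV-siCII, EV-siNC and vehicle, and did not pass the filter on low counts. A count of 0 allows up to 0.199 CPM.

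SOD1, SOD2 and catalase, which remove superoxide or hydrogen peroxide directly, were higher in EnzaR cells. The extracellular dismutase SOD3, from a further list, was lower (-2.01). SOD2, the mitochondrial superoxide dismutase, had 70.2 to 77.3 CPM in EnzaR libraries, against 35.2 to 40.8 CPM in LNCaP libraries (log2 fold change 0.96, SE 0.087). Cytosolic SOD1 was higher by 0.69 (SE 0.092) and catalase (CAT) by 0.59 (SE 0.106), which was 0.05 and not called with the GC and length correction. WTAP overlaps SOD2 with 125% as many counts, so its value is uncertain. The pentose phosphate enzymes TALDO1, TKT and PGD were higher by 0.63 (SE 0.103), 0.50 (SE 0.079) and 0.47 (SE 0.103), and PGD (0.12) was not called between siNC and the LNCaP control alone. ABCC1, which exports glutathione conjugates, was lower by 0.51 on the log2 scale, with 118 to 148 CPM in EnzaR libraries, against 188 to 203 CPM in LNCaP libraries, and was not called with the GC and length correction (-0.10).

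The ferritin chains, which form the iron storage shell together, went in opposite directions. FTH1, the heavy chain with ferroxidase activity, was at 2942 and 2680.0 CPM in siYAP1 and 2112 and 2244 CPM in siNC EnzaR cells, against 1730.0, 1740.0, 1896 and 1992 CPM in LNCaP cells given EV-siYAP1, EV-siCII, EV-siNC and vehicle (log2 fold change 0.44, SE 0.106, adjusted p = 0.00129). FTL, the light chain, was at 627 and 516 CPM in siYAP1 and 417 and 439 CPM in siNC EnzaR cells, against 747, 758, 795 and 879 CPM in LNCaP libraries in the same order (log2 fold change -0.67, SE 0.114, adjusted p = 5.21e-05). FTH1 was not called between siNC and the LNCaP control alone (0.15). The table names 25 pseudogenes of FTH1 and 16 of FTL, which held 0.284% and 0.147% as many counts as their parent genes, and how reads shared with them were assigned is not known.

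Levels of different genes were set side by side per length, as the authors' FPKM. The length is the exonic size of the whole gene, such as 2030 bases for FTH1 and 878 bases for FTL, not that of the transcripts expressed. Ranks, shares and ratios between genes depend on it. FTH1 ranked first of the 42 members in both lines, at 1179 FPKM in EnzaR and 937 FPKM in LNCaP cells. PRDX1 ranked 2 in EnzaR and 6 in LNCaP cells, PRDX5 6 and 3, NQO1 10 and 27, and TXN 9 and 16. Within the ferritin pair, FTH1 made up 68.4% ± 0.974 of the summed FPKM in EnzaR and 50.0% ± 0.54 in LNCaP libraries (SD, n = 4 each). Within the peroxiredoxins, PRDX5 made up 12% ± 0.843 in EnzaR and 37.7% ± 1.14 in LNCaP libraries, and PRDX1 44.1% ± 1.04 in EnzaR and 22.6% ± 0.926 in LNCaP libraries. These shares do not depend on the scaling between libraries, and they are descriptions without a test. Among glutathione peroxidases, GPX4 made up 39.3% ± 1.46 in EnzaR and 52.1% ± 0.404 in LNCaP libraries, and the ratio of GCLM to GCLC was 2.74 ± 0.335 in EnzaR and 1.74 ± 0.208 in LNCaP libraries (SD, n = 4 each).

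**Figure D3:**
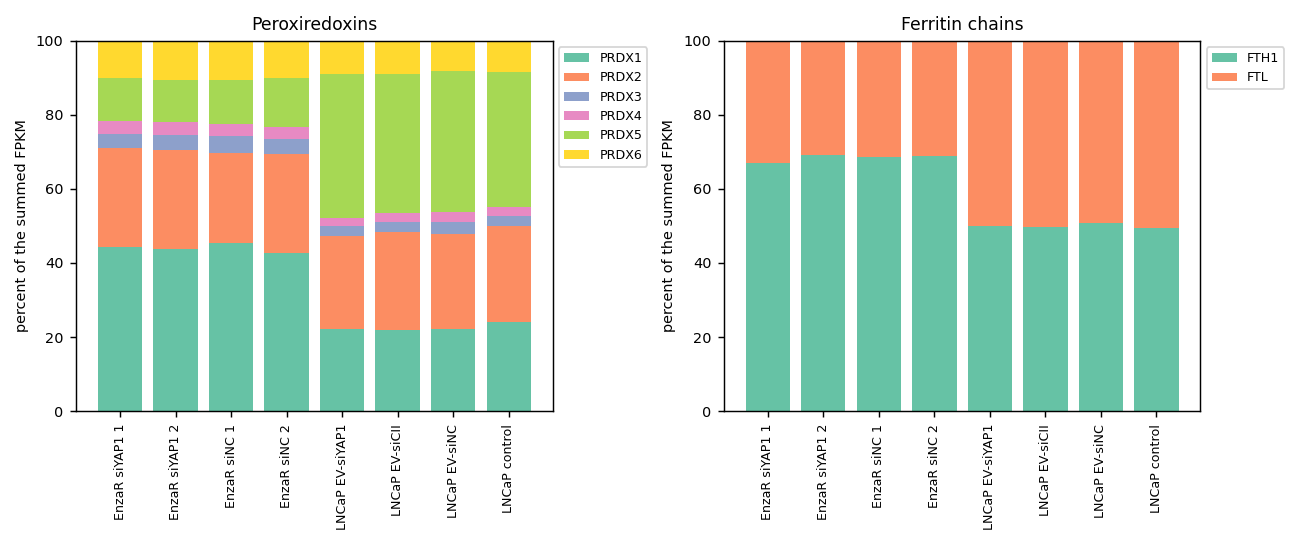
Percent of the summed FPKM of the 6 peroxiredoxins (left) and of the 2 ferritin chains (right) in each library (horizontal axis, EnzaR libraries left of LNCaP libraries). PRDX5 takes 11.3% to 13.2% in EnzaR and 36.2% to 39% in LNCaP libraries, and FTH1 takes 67% to 69.2% in EnzaR and 49.5% to 50.8% in LNCaP libraries.

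Other genes of the pathway were read from 7 further lists, against the same background of 72.6% called. Of 16 partners and regulators of NRF2 tested, 6 were higher and 7 lower. NFE2L1, the paralog of NRF2 that controls proteasome genes, averaged 235 ± 7.02 CPM in EnzaR and 612 ± 26.4 CPM in LNCaP libraries (SD, n = 4 each, log2 fold change -1.38), and the small MAF gene MAFF (-1.72) and the ubiquitin ligase TRIM21 (-1.23) were lower too. PALB2 (1.61), RBX1, a subunit of the cullin ligase that KEAP1 serves (1.19), and PGAM5 (0.60) were higher. RBX1 was at 0.60 with the GC and length correction.

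Of 25 other NRF2 targets tested, 20 were higher and 2 lower in EnzaR cells, AIFM2 (-1.87), a ferroptosis suppressor, and CYP4F11 (-0.47), which was not called between siNC and the LNCaP control alone (-0.39). UGT1A6, a glucuronosyltransferase, averaged 17.9 ± 1.63 CPM in EnzaR libraries and 0.0941 ± 0.128 CPM in LNCaP libraries, of which 2 were at 0 (SD, n = 4 each). The aldo-keto reductases AKR1C2 and AKR1C1 averaged 69.3 ± 9.93 and 18.6 ± 1.29 CPM in EnzaR libraries, against 2.33 ± 0.577 and 1.71 ± 0.324 CPM in LNCaP libraries (log2 fold changes 4.89 and 3.44). UGT1A6 shares exons with its neighbours and the AKR1C genes are close paralogs, so reads may be split between them.

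Of 25 further glutathione genes tested, 13 were higher and 6 lower. The glutathione-degrading cyclotransferase CHAC2 averaged 2.75 ± 0.895 CPM in EnzaR and 0.246 ± 0.157 CPM in LNCaP libraries, and the mitochondrial glutaredoxin GLRX2 24.6 ± 2.93 CPM in EnzaR and 3.25 ± 0.87 CPM in LNCaP libraries (SD, n = 4 each). The S-formylglutathione hydrolase ESD was higher by 1.91, or 1.04 with the GC and length correction. GSTA1, an alpha-class transferase with the near paralog GSTA2 (-1.17), averaged 1.37 ± 0.231 CPM in EnzaR and 19.3 ± 1.3 CPM in LNCaP libraries (-3.81), and the gamma-glutamyltransferase family gene GGT7 was lower as well (-1.78). GSTA2 was not called between siNC and the LNCaP control alone (-0.50) or all 4 LNCaP libraries (-0.96).

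Of 14 further thioredoxin and methionine sulfoxide genes tested, 5 were higher, led by the selenoproteins SELENOF (1.71) and SELENOK (1.14) and by TXNDC17 (1.09), which stood at 0.73, 0.48 and 0.53 with the GC and length correction. The 6 lower genes were led by the sestrins SESN3 (-4.62) and SESN1 (-2.62), which help reduce peroxiredoxins and restrain mTORC1, and by nucleoredoxin NXN (-2.04). SESN3 averaged 7.97 ± 2.4 CPM in EnzaR and 197 ± 43.2 CPM in LNCaP libraries (SD, n = 4 each). Of 13 NADPH supply genes tested, 9 were higher, led by MTHFD1 (1.98), RPE (1.27) and IDH1 (1.26), and 2 were lower, the pentose phosphate lactonase PGLS (-0.78) and H6PD (-0.78). Of 6 superoxide and oxidase genes tested, NOX5 was higher (1.69) and 5 were lower, led by DUOX2 (-3.68), the extracellular dismutase SOD3 (-2.01) and DUOXA1 (-1.95). DUOXA1 was not called between siNC and the LNCaP control alone (-1.02). DUOX2 averaged 0.236 ± 0.144 CPM in EnzaR and 3.08 ± 0.411 CPM in LNCaP libraries.

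Of 10 iron and ferroptosis genes tested, 3 were higher, led by the transferrin receptor TFRC (log2 fold change 2.28, SE 0.121), the iron chaperone PCBP1 (0.74) and HMOX2 (0.71), and 5 were lower. TFRC averaged 180 ± 25.1 CPM in EnzaR and 37.2 ± 5.39 CPM in LNCaP libraries (SD, n = 4 each). The iron exporter SLC40A1 averaged 0.0448 ± 0.0302 CPM in EnzaR and 1.5 ± 0.491 CPM in LNCaP libraries, and ACSL4, which loads membranes with polyunsaturated fatty acids, 0.11 ± 0.135 CPM in EnzaR, with 0 counts in both siYAP1 libraries, and 2.02 ± 0.883 CPM in LNCaP libraries. LPCAT3 had a log2 fold change of -0.91.

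Within EnzaR cells, siYAP1 was set against siNC with 2 libraries each, to ask what YAP1 depletion does to these transcripts. Both ferritin chains, GPX1 and the pentose phosphate enzymes TALDO1 and PGD were higher, and NFE2L2 and catalase were lower, with log2 fold changes of at most 0.42 in size, while NQO1, GCLM, GCLC and TXN were not called. Of 41 members tested, 5 were higher, 2 lower and 34 not called at an adjusted p under 0.05 (edgeR), and of all 14948 genes tested, 12.1% were called, 5.83% higher and 6.22% lower. The share called in either direction was thus 17.1% of the members tested, against 12.1% of all genes. Most member calls were higher, whereas calls over all genes fell about evenly in both directions. Whether these shares differ was not tested. The median log2 fold change was 0.14 over the members and -0.0253 over all genes tested. Without siYAP1 replicate 1 no member was called, with 15 genes higher and 11 lower in all, and no member was called without siNC replicate 1 or with the GC and length correction either. A fit without 1 library leaves a lone library in its group, whose spread is assumed to be that of the other group. Fold changes and transcript GC content moved together across genes in this comparison (Spearman's rho 0.481 over 14547 genes).

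For the 7 called members CPM is given on the scale of the 4 EnzaR libraries. FTL was at 601 and 502 CPM in siYAP1 libraries, against 399.9 and 426 CPM in siNC libraries (log2 fold change 0.42, SE 0.103, adjusted p = 0.0158). FTH1 was at 2821 and 2606 CPM in siYAP1 libraries, against 2024 and 2181 CPM in siNC libraries (0.37, SE 0.101, adjusted p = 0.0253). Both ferritin chains were thus higher in each siYAP1 library than in either siNC library, and the FTH1 share of ferritin FPKM was 67% and 69.2% in siYAP1 and 68.6% and 68.9% in siNC libraries. GPX1 was at 729.5 and 578 CPM in siYAP1 libraries, against 463 and 535 CPM in siNC libraries (0.39, SE 0.113, adjusted p = 0.0307). For GPX1 and FTL, and for TALDO1 below, the 2 siYAP1 libraries lay farther apart than the nearer siYAP1 and siNC libraries did.

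TALDO1 was at 453.5 and 391 CPM in siYAP1 libraries, against 325 and 332 CPM in siNC libraries (0.36, SE 0.099, adjusted p = 0.0247). PGD was at 564 and 532 CPM in siYAP1 libraries, against 442 and 450.2 CPM in siNC libraries (0.30, SE 0.094, adjusted p = 0.0447). These enzymes stand in the oxidative and the non-oxidative arm of the pentose phosphate pathway, whose other member here, TKT, was not called (0.11, SE 0.096). NFE2L2 was at 19.6 and 21.6 CPM in siYAP1 libraries, against 26.7 and 28.3 CPM in siNC libraries (-0.41, SE 0.131, adjusted p = 0.0447). CAT was at 67.5 and 74.2 CPM in siYAP1 libraries, against 93.2 and 84.2 CPM in siNC libraries (-0.32, SE 0.104, adjusted p = 0.0482). In each of the 7 genes the siYAP1 libraries lay on the same side of both siNC libraries. The genes were picked by a test on these same libraries, so this separation adds no support, and its share over all genes was not counted. Each of the 7 calls was lost without siYAP1 replicate 1, without siNC replicate 1 and with the GC and length correction. Without siYAP1 replicate 1 the log2 fold changes were 0.20 for GPX1 to 0.30 for FTH1 among the 5 higher genes, -0.36 for NFE2L2 and -0.27 for CAT. Of 11 alternatives FTL kept its call in 8, and NFE2L2 and CAT in 2 each.

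**Figure D4:**
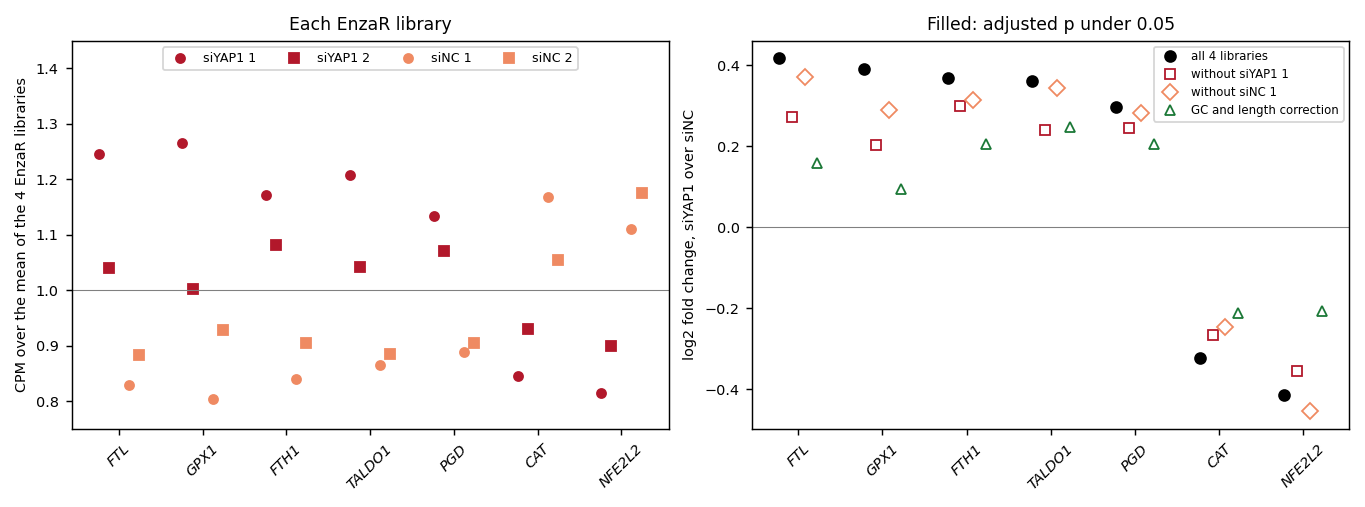
The 7 members called between siYAP1 and siNC. Left, CPM of each library over the mean of the 4 EnzaR libraries. Right, log2 fold change with all 4 libraries, without siYAP1 replicate 1, without siNC replicate 1 and with a GC and length correction (filled: adjusted p under 0.05). Only the values with all 4 libraries are filled, and FTL is at 0.27 without siYAP1 replicate 1 and 0.16 with the correction.

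Of the members that differed most between the lines, NQO1 had 613 and 574 CPM in siYAP1 libraries, against 543 and 532 CPM in siNC libraries, and was not called (0.14, SE 0.095, adjusted p = 0.334). OSGIN1 (0.38, SE 0.125, adjusted p = 0.0533), GCLC (-0.32, SE 0.132, adjusted p = 0.11) and GCLM (-0.23, SE 0.125, adjusted p = 0.219) missed the threshold as well. KEAP1 was at 144 and 146 CPM in siYAP1 libraries, against 134 and 143 CPM in siNC libraries (0.07, SE 0.095), and this small value was -0.04 when scaled by library totals alone and -0.10 with the GC and length correction. The 6 peroxiredoxins, the 4 thioredoxin system genes and the 7 glutathione transferases tested held no call, with log2 fold changes of -0.22 for SRXN1 to 0.27 for PRDX4. GPX8 had the lowest value of any member (-0.66, SE 0.270, adjusted p = 0.111) at 2.54 and 2.41 CPM in siYAP1 libraries, against 3.69 and 4.14 CPM in siNC libraries.

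The further lists are read against the same 12.1% of all genes called, and no partner or regulator of NRF2 was called among 16 tested. For these lists, here and in the next paragraph, CPM is on the scale of all 8 libraries. Of 27 other NRF2 targets tested, 2 were higher, the carbonyl reductase CBR3 (0.68, SE 0.160) and AKR1C2 (0.35), and 4 were lower, among them ABCG2 (-1.56), at 0.487 CPM in siYAP1 and 1.46 CPM in siNC libraries on average, UGDH (-0.37) and IDH1 (-0.36). Of 24 further glutathione genes tested, 3 were higher and 2 lower. CHAC1, which degrades glutathione, led with 37.6 and 40.3 CPM in siYAP1 libraries, against 19.5 and 25.1 CPM in siNC libraries (log2 fold change 0.81, SE 0.138, adjusted p = 0.00202), and stayed called with the GC and length correction (0.56) but not without siYAP1 replicate 1 (0.86, adjusted p = 0.0952). SLC3A2, the heavy chain partner of the cystine importer (0.40), and GSTZ1 (0.35) were higher, and SLC25A40, a mitochondrial glutathione carrier (-0.66), and GSTCD (-0.65) were lower.

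Of 14 thioredoxin and methionine sulfoxide genes tested, SELENOW (0.54), SESN2 (0.36) and mitochondrial TXN2 (0.36) were higher, and SESN3 (-0.77) and SELENOF (-0.37) were lower. Of 13 NADPH supply genes tested, PGLS was higher (0.48) and ME2 (-0.41) and IDH1 (-0.36) were lower. None of 4 superoxide and oxidase genes was called. Of 8 iron and ferroptosis genes tested, 2 were lower. IREB2, an iron regulatory protein that represses ferritin translation, was at 32.4 and 32.4 CPM in siYAP1 libraries, against 51.1 and 51.3 CPM in siNC libraries (-0.66, SE 0.114, adjusted p = 0.00202). TFRC had a log2 fold change of -0.33, which was 0.000605 with the GC and length correction. The 26 genes named as called in this comparison, 7 members and the genes of these lists, all lost their call without siYAP1 replicate 1. All 26 kept their sign there, with log2 fold changes of 43.7% to 115% of those with 4 libraries, at least as large in 9. These genes were picked by the fit with 4 libraries, whose other libraries are reused here, so the kept signs are no independent support. Without siNC replicate 1, siNC replicate 2 or siYAP1 replicate 2, calls remained for 8, 12 and 14 of the 26.

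In LNCaP cells, the 3 libraries given EVs were set against the 1 vehicle library, whose spread is assumed to be that of the EV libraries. No member was higher and 5 were lower with EVs, among 41 tested, and of all 16739 genes tested, 4.03% were called, 2.84% higher and 1.19% lower. The median log2 fold change was -0.121 over the members and 0.0177 over all genes tested, and fold changes moved with GC content across genes (Spearman's rho -0.419 over 16268 genes). CPM is given here on the scale of the 4 LNCaP libraries. NQO1 was at 40.7, 48.0 and 53.5 CPM with EV-siYAP1, EV-siCII and EV-siNC, against 64.9 CPM with vehicle (log2 fold change -0.45, SE 0.115, adjusted p = 0.0153). All 3 libraries given EVs were below the vehicle library, and the EV-siYAP1 library was lowest. NQO1 was called on these same libraries, so the place of the vehicle library adds no support. The share of all genes with this order was not counted. The NQO1 call was lost with DESeq2 (-0.47) and kept in 7 of 8 alternatives.

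SQSTM1 was at 491, 543 and 611 CPM with EV-siYAP1, EV-siCII and EV-siNC, against 724 CPM with vehicle (-0.40, SE 0.088, adjusted p = 0.0058), and was not called with the GC and length correction (-0.33). MGST2 was at 58.4, 63.8 and 55.7 CPM in the same EV libraries, against 81.8 CPM with vehicle (-0.46, SE 0.101, adjusted p = 0.00419). MGST2 overlaps MAML3, which had 61.1% as many counts, and kept its call under each alternative run. TXN was at 56.8, 55.1 and 59.5 CPM with EVs, against 71.9 CPM with vehicle (-0.33, SE 0.103, adjusted p = 0.0474), and PGD at 348, 392 and 356 CPM with EVs, against 441 CPM with vehicle (-0.27, SE 0.084, adjusted p = 0.0485). The TXN call was lost in 6 of 8 alternatives: when any 1 of the 3 EV libraries was left out, with library totals alone, with no filter on low counts and with DESeq2. The PGD call was lost in 5 of 8: without EV-siNC, without EV-siYAP1, with library totals alone, with DESeq2 and with the GC and length correction (-0.18).

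Both subunits of glutamate-cysteine ligase and the regulator stood on the other side of the vehicle library without a call, while GSS was at 162.5, 185 and 174 CPM with EV-siYAP1, EV-siCII and EV-siNC, against 189.8 CPM with vehicle (-0.13), and was not called either. GCLM was at 14.2, 11.7 and 12.9 CPM with EV-siYAP1, EV-siCII and EV-siNC, against 9.59 CPM with vehicle (0.43, SE 0.194, adjusted p = 0.209). GCLC was at 11.02, 10.6 and 13.1 CPM with EVs, against 9.12 CPM with vehicle (0.34, SE 0.201, adjusted p = 0.366). NFE2L2 was at 18.8, 16.0 and 17.9 CPM with EVs, against 13.2 CPM with vehicle (0.42, SE 0.172, adjusted p = 0.161). In each of these 3 genes every EV library was above the lone vehicle library. The share of all genes with this order was not counted, so it does not set the 3 genes apart. KEAP1 was at 101, 119 and 119 CPM with EVs, against 137 CPM with vehicle (-0.28, SE 0.092, adjusted p = 0.0694).

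**Figure D5:**
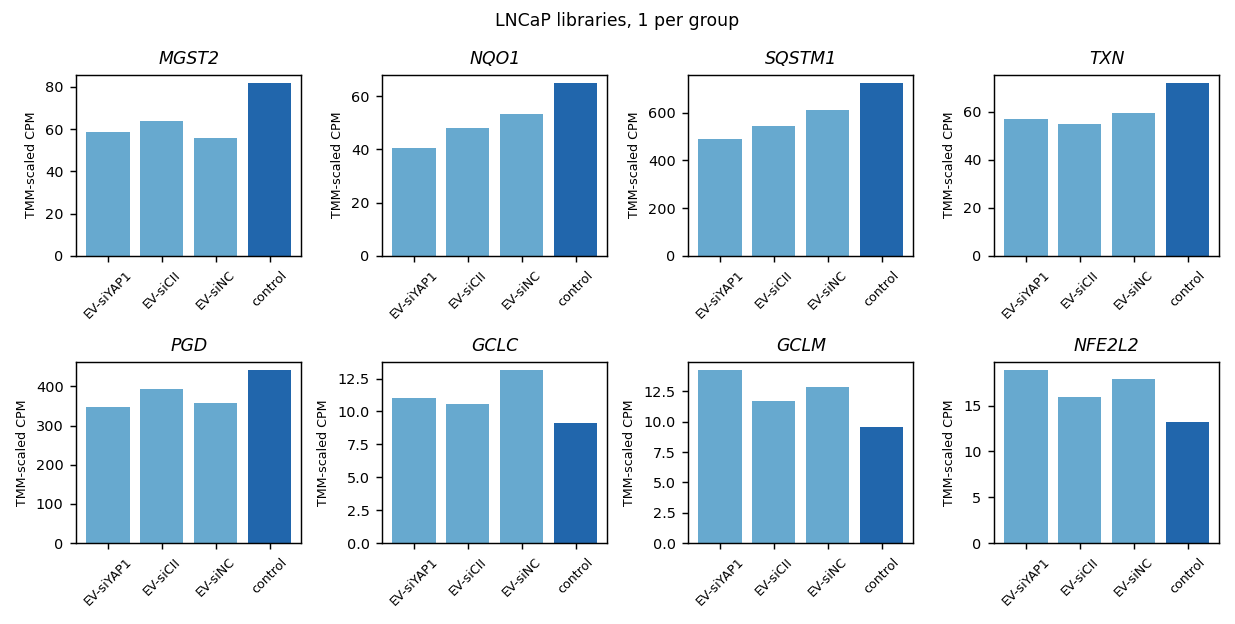
TMM-scaled CPM (vertical axis, from 0) in the 4 LNCaP libraries, 1 per group, for the 5 members called lower with EVs and for GCLC, GCLM and NFE2L2. NQO1 stands at 40.7 CPM with EV-siYAP1 and 64.9 CPM with vehicle, and the vehicle bar is the highest in the first 5 genes and the lowest in the last 3.

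In the further lists, read against the 4.03% of all genes called, the NRF2 target and cystine importer gene SLC7A11 was higher with EVs (0.79, SE 0.172, adjusted p = 0.00398), at 20.5, 17.7 and 20 CPM with EV-siYAP1, EV-siCII and EV-siNC and 11.3 CPM with vehicle on the scale of all 8 libraries. ABCC4 was the other of 2 higher among 24 such targets tested (0.47). Of 15 thioredoxin and methionine sulfoxide genes tested, SESN3 (0.64) and SESN1 (0.28) were higher, the second at -0.05 with the GC and length correction. NADK2, the mitochondrial NAD kinase (0.46), was the 1 gene called of 14 in NADPH supply, RBX1 (-0.39) the 1 called of 16 partners of NRF2, and IREB2 (0.57) and PCBP1 (-0.28) were called among 10 iron genes. None of 26 further glutathione genes and none of 9 oxidase genes was called, counts that lie near that share. With the GC and length correction SLC7A11 (0.35), ABCC4 (0.22), NADK2 (0.15), IREB2 (0.31) and PCBP1 (-0.16) were not called. SESN3 kept its call in each of 8 alternatives, SESN1 in 3, NADK2 in 5, RBX1 in 4 and PCBP1 in 2.

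Single libraries were then compared in pairs, with no test, by an absolute log2 ratio of at least 0.322, among genes reaching 10 CPM in at least 1 library of the pair. Of the 42 members 38 passed that floor, and GPX2, GPX3, GPX8 and GSTP1 did not. The same rule between the 2 siNC replicates passed 2 of 38 members and 9.85% of genes, and between the 2 siYAP1 replicates 3 of 38 members and 9.8% of genes. For EV-siNC against vehicle, 3 members were higher and 1 lower, against 17.5% of all 9056 genes past the limit, 13.8% higher and 3.73% lower. These were GCLC (log2 ratio 0.52, exact 95% limits 0.23 to 0.83), NFE2L2 (0.44, limits 0.20 to 0.70), GCLM (0.42, limits 0.13 to 0.72) and MGST2 (-0.55, limits -0.67 to -0.43). GCLC and GCLM were under 10 CPM with vehicle, so they passed the floor only through the library in which they were higher, and their place in the count supports nothing.

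For EV-siYAP1 against EV-siNC, the comparison that asks what YAP1 in the donor cells changes, NQO1 was the 1 of 38 members past the fold, at 40.7 CPM with EV-siYAP1 and 53.5 CPM with EV-siNC (log2 ratio -0.39, exact 95% limits -0.54 to -0.26), against 7.95% of 9136 genes in either direction and 4.06% of the 9136 lower. SQSTM1 (-0.32, limits -0.36 to -0.28) and PRDX4 (-0.32, limits -0.42 to -0.21) came near the fold without passing it. For EV-siCII against EV-siNC no member passed, against 5.28% of 9072 genes, and for EV-siYAP1 against EV-siCII none passed either, against 7.49% of 9118 genes. Limits cover counting error only, the comparisons share libraries, and the share of members past the fold was in each pair below that of all genes.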

How the data were processed

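The authors deposited 1 table with 57905 Ensembl genes, holding unnormalised read counts and FPKM of the 8 libraries. Per the submitters' processing notes, cutadapt 1.9.1, HISAT2 2.0.1, HTSeq 0.6.1, DESeq2 and the build hg19 (GRCh37) were used, with no roles stated; annotation release and strand setting are unknown. The authors' FPKM equalled the deposited count divided by length and column total in 463240 of 463240 values (tolerance 0.0051), so FPKM served only for levels between genes. Replicate counts were not copies: the lowest chi-square per degree of freedom of any pair of libraries was 5.03.

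Counts were tested with the quasi-likelihood test of edgeR 4.0.16 under R 4.3.3 (two-sided, robust, TMM scaling, low counts removed by filterByExpr, Benjamini-Hochberg over all genes tested, threshold 0.05), after tests on simulated data. Each fit held the libraries of its comparison, and treatments within a line counted as spread between lines. Ratios of single libraries used a prior count of 2, with exact binomial limits at 95%. Alternatives were DESeq2 1.42.0, other scalings, filters and thresholds, a replicate block, libraries left out, and a smooth correction for GC content and length (mgcv 1.9.3), which for EVs against vehicle, like leaving out libraries for family shares, was chosen after seeing the data.

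Every member is accounted for. Per-library values were given for members called between siYAP1 and siNC, called at 2-fold between lines or past a log2 ratio of 0.322 between single LNCaP libraries, and for NFE2L2 and KEAP1. HMOX1, GPX8, GSTP1, FTH1, FTL, SQSTM1, TXN, PGD, MGST2 and PRDX4 were added for some comparisons after their values were seen. Of each further list, up to 3 called genes per direction with the largest fold change were named. Members and lists were chosen with earlier results of these data known. Intervals and floors cover counting error only.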

Additional observations from a re-analysis of the deposited data

Results flagged for a closer look

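In each line, members with a mean of at least 1 CPM were checked for a library that stands apart from the other 3, by the gap to its nearest neighbour over the whole range (Dixon's test at its 95% critical value). Of 80 such groups of 4 libraries 5 were flagged, and chance flags about 1 in 20 groups. GCLM was at 61.2 CPM in siNC replicate 1, against 44.7 to 46.6 CPM in the other EnzaR libraries. In LNCaP cells the vehicle library stood above the 3 EV libraries in PRDX1 (756 CPM, the others 621 to 633 CPM), GSTK1 (72.9 CPM, the others 57.9 to 59.8 CPM) and SOD1 (152 CPM, the others 124 to 127 CPM). None of these 3 was called between EVs and vehicle (adjusted p = 0.0539, 0.0789 and 0.0751 in edgeR). MGST1 was at 75.9 CPM with EV-siCII, against 66.1 to 67.1 CPM in the other LNCaP libraries.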

How the results depend on the processing

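Between EnzaR and LNCaP cells, 28 members were called higher and 7 lower. Over all alternatives the counts were 20 to 29 and 6 to 8, with 20 higher for siNC against the LNCaP control alone and 25 with the GC and length correction. Leaving out each library in turn gave 27 to 29 members higher and 6 to 7 lower (5342 to 5771 and 5566 to 5853 genes), and 6 to 7 members higher and 1 lower at 2-fold. Members 2-fold lower numbered 3 with siNC against the LNCaP control alone and 2 with the GC and length correction. Signs turned for GPX8 (0.101) and GSTK1 (-0.0896) in siNC against that control and for PRDX6 (-0.0188) and MGST1 (-0.242) with the correction. The correction is itself built on GC content, with which fold changes had a Spearman's rho of -0.306 over genes, and all 42 members had a GC value.

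Between siYAP1 and siNC, 872 genes and 5 members were higher and 930 genes and 2 members lower. Leaving out a replicate gave 15 to 940 genes and 0 to 7 members higher, and 11 to 829 genes and 0 to 1 member lower. Library totals alone gave 291 genes and 2 members higher and 1416 genes lower, shifting the median of all genes by -0.103. The GC and length correction gave 336 genes and 0 members higher and 217 genes and 0 members lower. DESeq2 gave 567 genes lower, and members lower were 0 with DESeq2, with its size factors and with all 8 libraries in the fit. A threshold of 0.1 gave 1428 genes and 8 members higher and 1611 genes lower, and 0.01 gave 154 genes and 0 members higher and 202 genes and 0 members lower. A block on the replicate number, whose pairing the data did not show (r = -0.0798 between same-numbered libraries), gave 564 genes and 1 member higher and 0 members lower. KEAP1 was at -0.0357 with library totals and -0.102 with the GC and length correction, and TFRC at 0.000605 with that correction.

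Between EVs and vehicle, leaving out an EV library gave 308 to 627 genes and 0 members higher, and 119 to 269 genes and 3 to 6 members lower. Library totals gave 835 genes higher, 111 genes lower and 3 members lower, DESeq2 gave 119, 45 and 3, and the GC and length correction gave 21 genes higher and SESN1 at -0.0487.

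For single libraries, EV-siNC against vehicle passed 4383 genes and 7 members at a floor of 1 CPM, and 276 genes and 0 members at a fold of 1.5. EV-siYAP1 against EV-siNC passed 1251 genes at a floor of 5 CPM, 3167 genes and 2 members at 1 CPM, and 66 genes and 0 members at 1.5-fold. EV-siCII against EV-siNC passed 977 genes at 5 CPM, 2824 genes and 1 member at 1 CPM, and 43 genes at 1.5-fold. EV-siYAP1 against EV-siCII passed 1240 genes at 5 CPM, 3148 at 1 CPM and 66 at 1.5-fold. The causes of these changes were not tested beyond what each setting changes. Depth limits GPX2, GPX3, GPX8 and GSTP1.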
